A study of Mus musculus with 20 samples.

Results

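Alpl, Ank and Mgp, 3 genes that act on the balance between pyrophosphate, phosphate and calcium in tissue, were followed in mouse kidney across genotype, diet and days on the diet. Members were taken from the array's annotation as every probe set that names Alpl, Ank or Mgp as its single gene, and each gene had 1 such probe set, so there were 3 members among the 8251 genes that the array's 12422 probe sets name singly. A probe set is a group of short oligonucleotides that together report 1 transcript. Alpl was read by probe set 92796_at (Entrez gene 11647), Ank by 100948_at (Entrez gene 11732; the gene is also called Ankh) and Mgp by 93866_s_at (Entrez gene 17313). The sources used here do not say which exon or untranslated region each probe set lies in.

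Inorganic pyrophosphate blocks the growth of calcium phosphate crystals, and its level outside cells depends on how fast it is supplied and how fast it is split. Alpl encodes tissue-nonspecific alkaline phosphatase, a membrane-anchored enzyme that hydrolyses pyrophosphate to phosphate and in the kidney is found at the brush border of the proximal tubule. Ank encodes a multipass membrane protein needed for the supply of pyrophosphate outside the cell, and Mgp encodes matrix Gla protein, a small vitamin K-dependent protein that keeps arteries and cartilage from calcifying.

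The study compared normal and Hyp mice of the strain C57BL/6J on a control or a low phosphate diet. Hyp mice carry a mutation of Phex, the gene affected in X-linked hypophosphatemia, in which the kidney wastes phosphate, and the normal mice do not. Each genotype was fed each diet, which gave 4 groups of 5 arrays, and every array carried RNA pooled from 3 mice. In each group 2 arrays covered 3 days of feeding and 3 covered 5 days; males supplied 12 of the 20 arrays and females 8. The sources used here do not state the age of the mice. Levels are the authors' scaled signal intensities, in arbitrary units, and they were compared only within a probe set. Because each array holds RNA of whole kidney, fewer cells of a type and less RNA per cell cannot be told apart.

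The promoters of the genes are shown because the Alpl signal cannot be assigned to either of its 2 annotated starts. RefSeq's mouse table (GRCm38.p6) listed 2 transcription starts for Alpl, 29909 bases apart, and 1 for Ank; it had no entry for Mgp. Each sequence is the 250 bases before the start, written 5′ to 3′ on the gene's own strand, with matches to a searched motif in capitals: start 1 of Alpl at chr4:137796385-137796634 (minus strand), start 2 of Alpl at chr4:137766476-137766725 (minus strand) and Ank at chr15:27466427-27466676 (plus strand).
Alpl start 1: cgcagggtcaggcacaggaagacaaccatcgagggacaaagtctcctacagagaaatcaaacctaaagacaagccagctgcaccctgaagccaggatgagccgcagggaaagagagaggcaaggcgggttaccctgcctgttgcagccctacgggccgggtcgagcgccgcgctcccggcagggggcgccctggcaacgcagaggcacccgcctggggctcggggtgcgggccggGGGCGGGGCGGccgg
Alpl start 2: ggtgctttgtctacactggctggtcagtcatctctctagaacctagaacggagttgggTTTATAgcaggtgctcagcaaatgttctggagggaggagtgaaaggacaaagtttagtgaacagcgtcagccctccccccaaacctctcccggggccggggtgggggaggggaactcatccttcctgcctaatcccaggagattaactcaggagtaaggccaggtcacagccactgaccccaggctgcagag
Ank: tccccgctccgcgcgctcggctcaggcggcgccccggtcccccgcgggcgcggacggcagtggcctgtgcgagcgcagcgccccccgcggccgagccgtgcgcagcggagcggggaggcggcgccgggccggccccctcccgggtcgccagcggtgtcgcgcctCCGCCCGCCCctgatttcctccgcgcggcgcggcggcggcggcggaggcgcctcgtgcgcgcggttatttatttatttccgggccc
The motifs searched on both strands were the GC box (GGGCGG), the TATA box (TATAAA), the CCAAT box (CCAAT) and an E-box (CACGTG); no match overlapped one of another motif. Start 1 of Alpl held 2 overlapping GC boxes, and the Ank promoter held 2 overlapping GC boxes on the opposite strand. Start 2 of Alpl held 1 TATA box, on the opposite strand. Over all 32851 listed promoters, 32.7% held a GC box within 250 bases, 12.4% a TATA box, 33.8% a CCAAT box and 6.02% an E-box. No CCAAT box or E-box was found in these 3 windows. The windows also differed in base composition, with 68.4% G and C and 20 CpG pairs at start 1 of Alpl, 56.0% and 4 pairs at start 2, and 81.2% and 49 pairs at Ank, beside a median of 52.4% over all promoters. These matches are descriptions of the letters, and the arrays hold no measurement of factor binding.

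Phex was dim in all 4 groups, from 11.5 to 106.3, fell below the intensity filter and has no test; its probe set may lie outside the sequence that the Hyp mutation affects, so it checks no label. Markers of kidney segments were bright in every group, with mean intensities from 8512 to 9271 for Lrp2, the endocytic receptor of the proximal tubule, from 9421 to 10576 for Umod, of the thick ascending limb, and from 1809 to 2146 for Aqp2, the collecting duct water channel. By runs of the title numbers with 1 sex and 1 duration, the arrays fall into 6 array sets, of which 4 hold all 4 groups; arrays 09 and 10 hold Hyp mice only and arrays 19 and 20 normal mice only. Arrays 05 to 08 stood apart, with a median rank correlation with the other arrays of 0.895 to 0.934, and of at least 0.943 for every other array. They also had ratios of 3′ to 5′ actin signal, a sign of RNA quality, from 1.74 to 2.61, against 1.22 to 1.98 elsewhere.

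Alpl was lower in the kidneys of Hyp mice. On control diet the normal arrays read 2586, 1814, 2661, 3484 and 2601, and on low phosphate diet 3562, 2392.5, 3986, 4268 and 3565. The Hyp arrays read 2485, 1255, 1148, 2349 and 2729 on control diet, and 2555, 1489, 1474, 2712 and 2737 on low phosphate diet. The normal low phosphate group was highest and the Hyp control group lowest, but every pair of groups compared overlapped in its range.

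In group means, the order for Alpl ran from normal mice on low phosphate diet, at 3555 ± 715 (SD, n = 5), over normal mice on control diet, at 2629 ± 591 (SD, n = 5), and Hyp mice on low phosphate diet, at 2193 ± 654 (SD, n = 5), to Hyp mice on control diet, at 1993 ± 737 (SD, n = 5). The means of the 2 Hyp groups lay within 1 SD of each other, as did those of Hyp mice on low phosphate diet and normal mice on control diet. The largest step between neighbours was between the 2 normal groups.

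**Figure D1:**
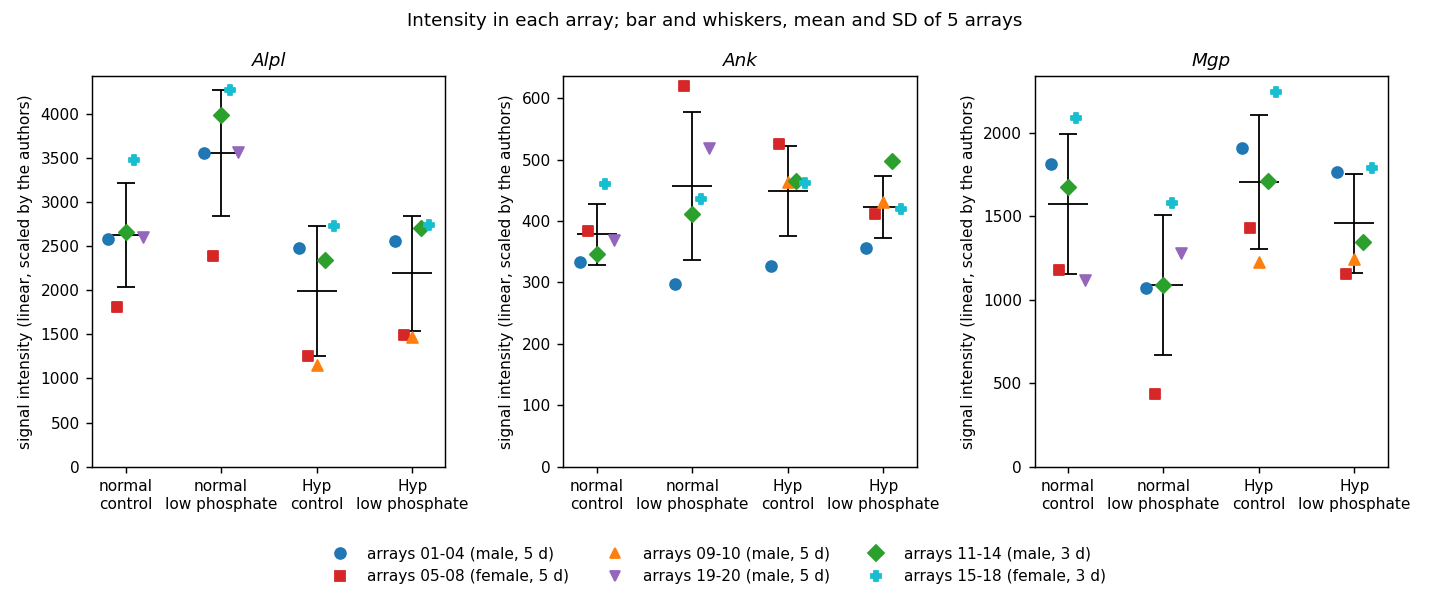
Signal intensity of Alpl, Ank and Mgp on each of the 20 arrays (vertical axis, arbitrary units from 0; marker and colour give the array set) by group, with the group mean as a line and the SD as whiskers, n = 5 a group. The groups overlap in every panel; for Alpl the 5 normal arrays on low phosphate diet lie between 2392.5 and 4268.

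Differences were tested on the log2 scale with limma, with terms for the strata of sex and days, and a probe set was called where the p-value adjusted over all 8695 probe sets tested was below 0.05. The spread behind these p-values is that of pools, not of single mice, and nothing in the labels says how the pools were drawn. Averaged over the diets, Alpl was lower in Hyp than in normal mice by a log2 difference of -0.58 ± 0.12 (SE; 95% interval -0.84 to -0.33; adjusted p = 0.023, limma), a call that 1.28% of probe sets received in this comparison. On low phosphate diet alone the difference was -0.72 ± 0.17 (adjusted p = 0.10), and on control diet it was -0.45 ± 0.17 (adjusted p = 0.52), with 0.357% and 0.253% of probe sets called; neither passed. The averaged call depended on the arrays kept. It passed in 19 of 20 fits with 1 array left out, but without array 02 the difference was -0.57 with an adjusted p of 0.051. Without arrays 05 to 08 it was -0.58 with an adjusted p of 0.12. Without array 09 the difference on low phosphate diet did pass, at -0.59 (adjusted p = 0.019), while that on control diet was smaller, at -0.28 (adjusted p = 0.79).

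The same comparison within an array set avoids differences between sets. In the 4 sets that hold all groups, the Hyp array read 0.69 to 0.96 times its normal partner on control diet and 0.62 to 0.72 times on low phosphate diet, so Alpl was lower in Hyp mice in 8 of 8 pairs. Of all probe sets tested, 1.38% were lower in all 8 pairs and 1.71% higher in all 8. When array set replaced sex and days as the block, the averaged difference was -0.43 ± 0.067 (adjusted p = 0.0040, limma; 1.12% of probe sets called). In that fit the difference on low phosphate diet was -0.56 ± 0.090 and passed (adjusted p = 0.0067; 0.449% called), and on control diet it was -0.30 (adjusted p = 0.33; 0.265% called).

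On the low phosphate diet Alpl read higher than on control diet in both genotypes, though not past the threshold in the main fit. In normal mice the log2 difference was 0.43 ± 0.17 (95% interval 0.07 to 0.79; adjusted p = 0.46), with 0.184% of probe sets called, and in Hyp mice it was 0.17 ± 0.17 (95% interval -0.19 to 0.53; adjusted p = 0.998), with 0.15% called. The value in Hyp mice was -0.0072 without array 09 and 0.29 without array 03 or array 10. Averaged over the genotypes it was 0.30 ± 0.12 (adjusted p = 0.41; 0.472% called). Within the array sets, the low phosphate array read 1.22 to 1.50 times the control array in normal mice and 1.00 to 1.28 times in Hyp mice. Alpl was thus higher in 10 of 10 pairs, as were 0.702% of all probe sets tested, while 0.909% were lower in all 10.

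With the array set as a block, the diet difference of Alpl in normal mice kept its size and passed, at 0.43 ± 0.085 (adjusted p = 0.030, limma; 0.667% of probe sets called). The difference averaged over genotypes also passed, at 0.30 ± 0.060 (adjusted p = 0.028; 1.12% called). In Hyp mice it did not, at 0.17 ± 0.085 (adjusted p = 0.75; 0.161% called). The diet call for Alpl therefore differs between the fit with sex and days and the fit with array sets. Each diet pair lies within 1 array set, so both fits gave the same difference, 0.43 in normal mice. Its SE was 0.17 with sex and days and 0.085 with the block, which takes out differences between sets.

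Whether Alpl responded to the diet by a different amount in Hyp mice was tested as an interaction. It was -0.27 ± 0.24 on the log2 scale (95% interval -0.78 to 0.25; adjusted p above 0.99; 0.046% of probe sets called), and with the array set as a block the interval was -0.52 to -0.0088 (adjusted p = 0.94). Without array 09 it was -0.44, and without array 03 or array 10 it was -0.14. No difference between the genotypes in the diet response of Alpl passed the test.

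**Figure D2:**
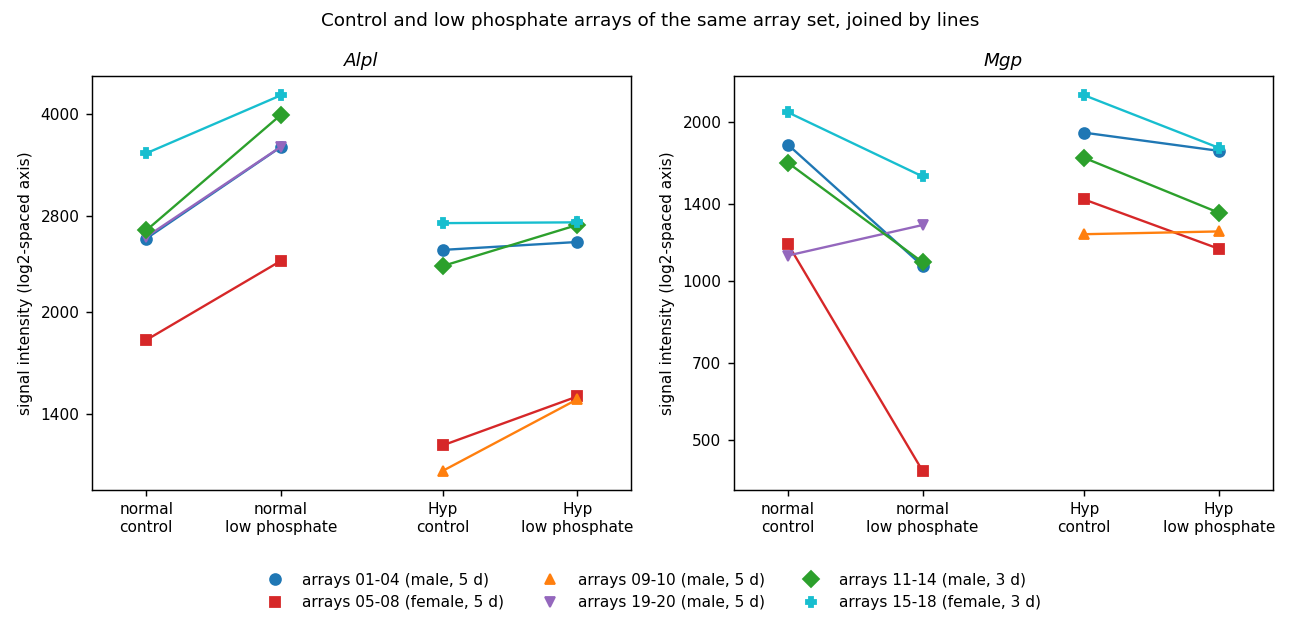
Control and low phosphate arrays of the same array set and genotype joined by lines for Alpl and Mgp (vertical axis, signal intensity, log2-spaced; markers and colours give the array set). All 10 lines for Alpl go up, by a factor of 1.00 to 1.50, and 8 of the 10 lines for Mgp go down.

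Ank did not pass in any comparison. Normal mice on control diet read 333, 384, 346.5, 460.0 and 370 (369.6), and on low phosphate diet 297, 619, 412, 436 and 519. Hyp mice read 327, 525, 463.5, 466 and 462 on control diet and 357, 411, 431, 497 and 420 (419.7) on low phosphate diet. Arrays of every group lie among those of the others, and the lowest and the highest value were both in normal mice on low phosphate diet.

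The group means of Ank were 379 ± 49.6 for normal mice on control diet, 457 ± 121 for normal mice on low phosphate diet, 449 ± 72.9 for Hyp mice on control diet and 423 ± 50.4 for Hyp mice on low phosphate diet (SD, n = 5 each). No neighbours in this order differed by more than the larger of their SDs. The log2 difference with diet was 0.22 ± 0.15 in normal mice (95% interval -0.09 to 0.53; adjusted p = 0.75) and -0.07 ± 0.15 in Hyp mice (95% interval -0.38 to 0.24; adjusted p above 0.99). With genotype it was 0.22 ± 0.15 on control diet (adjusted p = 0.69) and -0.07 ± 0.15 on low phosphate diet (adjusted p = 0.91). The interval for diet in normal mice includes 0.43, the value measured for Alpl there. With 1 array left out, the Ank value for diet in normal mice ran from 0.13 to 0.33.

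Within array sets Ank had no common direction. It was higher on low phosphate diet in 3 of 5 pairs of normal mice, at 0.89 to 1.61 times control, and in 2 of 5 pairs of Hyp mice. It was higher in Hyp mice in 3 of 4 pairs on control diet and in 2 of 4 on low phosphate diet. With the array set as a block the adjusted p was at least 0.48 in every one of its comparisons.

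Mgp read lower on the low phosphate diet in both genotypes, without passing the threshold. Normal mice read 1812, 1175, 1674, 2086 and 1118 on control diet, and 1068, 437, 1085.5, 1577 and 1277 on low phosphate diet. Hyp mice read 1909, 1427, 1226.5, 1710.4 and 2246.5 on control diet, and 1763, 1151, 1241, 1346.5 and 1786.5 on low phosphate diet. Array 06, of normal mice on low phosphate diet, was the lowest of all at 437, and the same array had the highest Ank value, 619. It also had the highest ratio of 3′ to 5′ actin signal of all arrays, 2.61.

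The order of the group means of Mgp was Hyp mice on control diet, 1704 ± 400.4, normal mice on control diet, 1573 ± 417, Hyp mice on low phosphate diet, 1458 ± 298, and normal mice on low phosphate diet, 1089 ± 418 (SD, n = 5 each). The groups overlapped in each comparison, and no neighbours in the order differed by more than the larger of their SDs. In normal mice the log2 difference with diet was -0.58 ± 0.19 (95% interval -0.98 to -0.18; adjusted p = 0.32), and in Hyp mice -0.21 ± 0.19 (95% interval -0.61 to 0.19; adjusted p above 0.99). Averaged over the genotypes it was -0.40 ± 0.13 (adjusted p = 0.29). Without array 06 the difference in normal mice was -0.37.

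Hyp mice read higher for Mgp, again without a call. The log2 difference was 0.12 ± 0.19 on control diet (adjusted p = 0.87), 0.49 ± 0.19 on low phosphate diet (adjusted p = 0.44) and 0.31 ± 0.13 averaged over the diets (adjusted p = 0.30). Without array 06 the value on low phosphate diet was 0.28 and the averaged value 0.20. The interaction was 0.37 ± 0.27 (95% interval -0.20 to 0.94; adjusted p above 0.99), and 0.16 without array 06.

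Within array sets, Mgp was lower on low phosphate diet in 4 of 5 pairs of normal mice, at 0.37 to 1.14 times control, and in 4 of 5 pairs of Hyp mice, at 0.79 to 1.01 times control. The pair of normal mice that went the other way was arrays 19 and 20, and among Hyp mice it was arrays 09 and 10. Mgp was higher in Hyp mice in 4 of 4 pairs on control diet, at 1.02 to 1.21 times normal, and in 4 of 4 on low phosphate diet, at 1.13 to 2.63 times normal. As many as 8.83% and 9.98% of all probe sets were higher in all 4 pairs of these comparisons, and 1.71% in all 8. With the array set as a block, the diet difference in normal mice had an adjusted p of 0.17 and the genotype difference on low phosphate diet an adjusted p of 0.34.

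**Figure D3:**
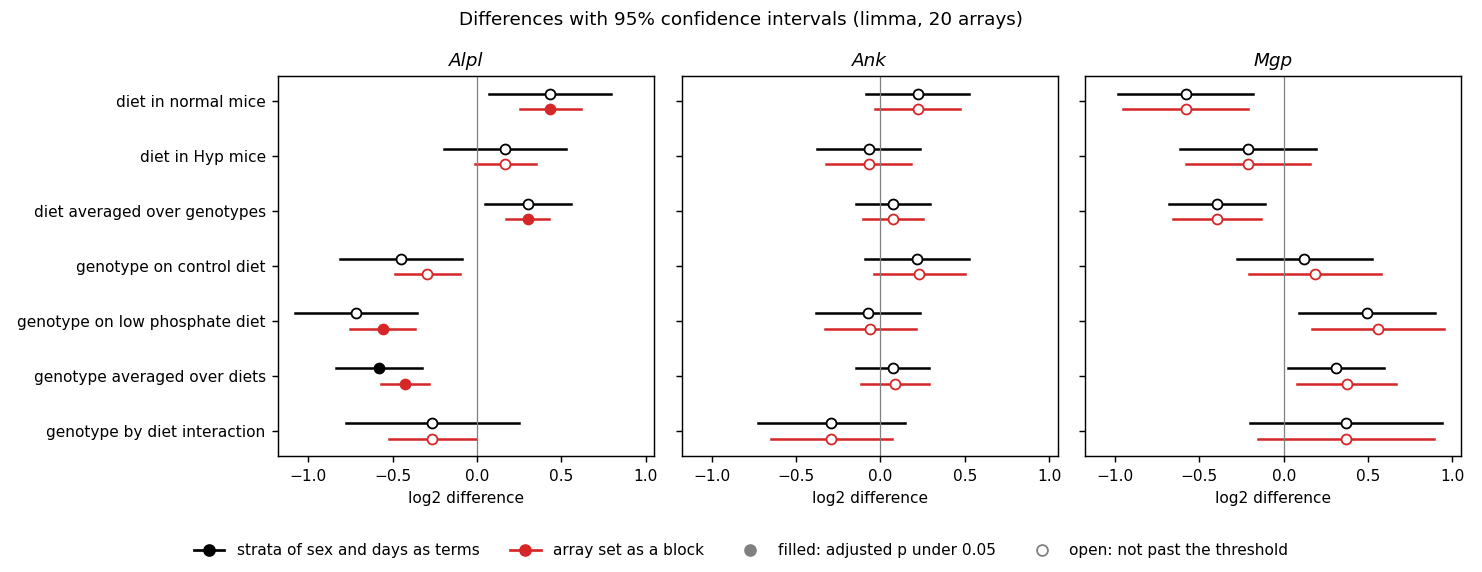
Log2 differences (horizontal axis) of Alpl, Ank and Mgp in the diet and genotype comparisons, with 95% intervals, from the fit with sex and days and from the fit with the array set as a block; filled points passed an adjusted p of 0.05. Alpl has filled points for genotype averaged over diets in both fits, and for diet in normal mice, diet averaged over genotypes and genotype on low phosphate diet with the block only.

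Across the days on the diet, Alpl and Mgp were lower on the 5-day than on the 3-day arrays and Ank was not called. The log2 difference, 5 days minus 3 days, was -0.61 ± 0.13 for Alpl (adjusted p = 0.0016, limma), -0.50 ± 0.14 for Mgp (adjusted p = 0.010) and -0.03 ± 0.11 for Ank (95% interval -0.25 to 0.20; adjusted p = 0.86). In this comparison 40.9% of all probe sets were called, so such a call was common. Each array set holds 1 duration, so days and array set cannot be told apart. Arrays 05 to 08 are the only 5-day females. They stood apart in rank correlation and had ratios of 3′ to 5′ actin signal from 1.74 to 2.61. The part of RNA quality in the days difference was not tested. Without arrays 05 to 08 the difference is that of males alone and not the mean of both sexes. In males it was -0.28 for Alpl (adjusted p = 0.39) and -0.037 for Mgp (adjusted p = 0.90). There 26 probe sets were called, against 3554 for the mean of both sexes.

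The array sets differed within a duration. For Alpl, the mean of the 4 arrays was 2927 and 3304 in the 3-day sets, and among the 5-day sets it was 2797 for arrays 01 to 04, 3083 for arrays 19 and 20, 1737 for arrays 05 to 08 and 1311 for arrays 09 and 10. These means mix groups, since arrays 19 and 20 hold normal mice only and arrays 09 and 10 Hyp mice only. Matched by group, normal males on control diet read 2586 and 2601 at 5 days and 2661 at 3 days. On low phosphate diet they read 3562 and 3565 at 5 days and 3986 at 3 days. Normal females read 1814 (control) and 2392.5 (low phosphate) at 5 days, and 3484 and 4268 at 3 days. Among Hyp males at 5 days, arrays 09 and 10 read 1148 and 1474, and arrays 03 and 04 read 2485 and 2555. The 3-day Hyp males read 2349 and 2712. Hyp females read 1255 (control) and 1489 (low phosphate) at 5 days, and 2729 and 2737 at 3 days.

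**Figure D4:**
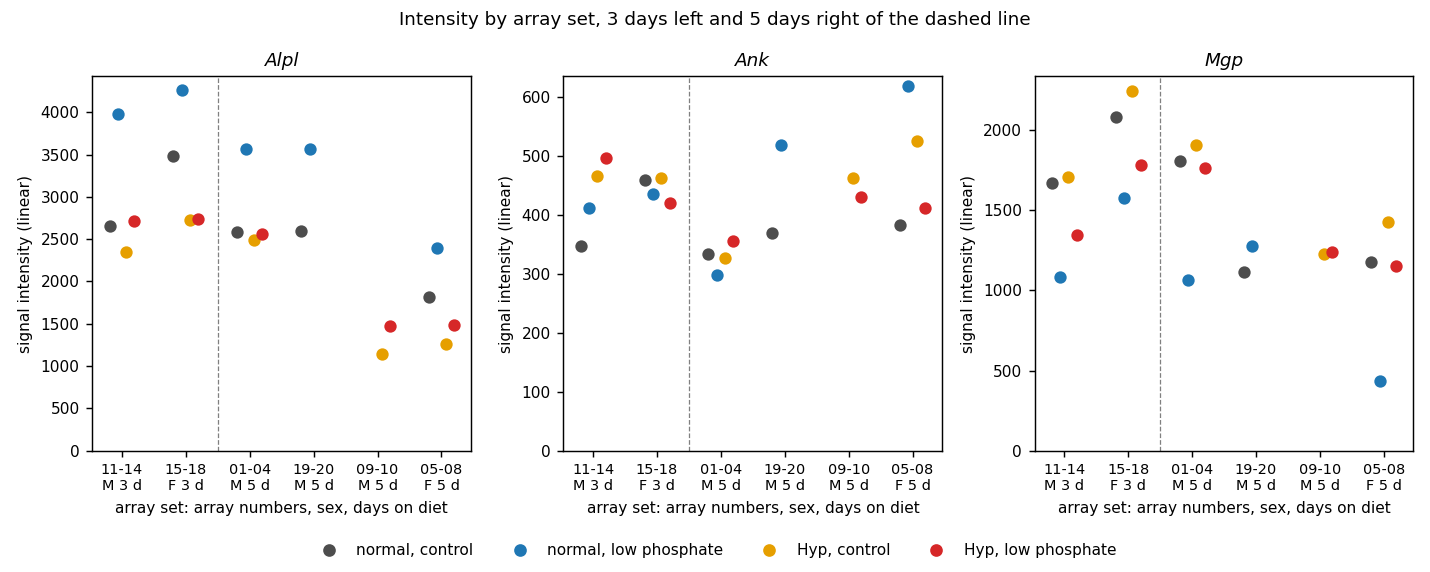
Signal intensity of Alpl, Ank and Mgp (vertical axis, arbitrary units from 0) on each array by array set, with sex and days on diet named under each set and the group given by colour. For Alpl, arrays 05 to 08 and arrays 09 and 10 read from 1148 to 2392.5, and every array of the other sets read 2349 or more.

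The diet difference was also compared between the durations. For Alpl, normal mice had means of 3072 on control and 4127 on low phosphate diet at 3 days (n = 2 each), and 2333 and 3173 at 5 days (n = 3 each). Hyp mice had 2539 and 2724 at 3 days, and 1629 and 1839 at 5 days. The log2 diet difference averaged over genotypes was 0.27 ± 0.20 at 3 days and 0.32 ± 0.17 at 5 days, with 0.046% and 0.104% of probe sets called. Without array 09 the value at 5 days was 0.17. The difference between durations was 0.05 (95% interval -0.51 to 0.62).

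For Mgp, normal mice had means of 1880 (1879.9) on control and 1331 on low phosphate diet at 3 days, and 1368 and 927 at 5 days. Hyp mice had 1978 and 1566.5 at 3 days, and 1521 and 1385 at 5 days. The log2 diet difference was -0.42 ± 0.23 at 3 days and -0.38 ± 0.18 at 5 days (-0.20 without array 06), and differed by 0.03 between durations (95% interval -0.60 to 0.66). For Ank it was 0.03 ± 0.17 and 0.11 ± 0.14, a difference of 0.08 (95% interval -0.41 to 0.56). None of these passed. In the test of diet by days 0% of probe sets were called by limma (276, or 3.17%, had an unadjusted p below 0.05). In genotype by days likewise 0% were called (424, or 4.88%, unadjusted), and the differences were -0.26 for Alpl, -0.13 for Ank and 0.26 for Mgp.

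Sex was compared as females minus males, averaged over the durations. The log2 difference was -0.15 ± 0.13 for Alpl (adjusted p = 0.46), 0.17 ± 0.11 for Ank (adjusted p = 0.28) and -0.06 ± 0.14 for Mgp (adjusted p = 0.83), with 16.6% of probe sets called. None of the members passed, and the females make up array sets of their own. For Alpl and Mgp the average joins opposite directions. At 3 days females had a mean of 3304 and males 2927 for Alpl, and 1924 and 1454 for Mgp. At 5 days, where the females are arrays 05 to 08, the means were 1737 and 2497 for Alpl, and 1047 and 1427 for Mgp.

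Other genes of pyrophosphate and phosphate release were measured beside Alpl and Ank. Of 11 listed, 7 were measured and 5 tested, and 0 passed in either direction in the diet or genotype comparisons. The medians of the log2 differences were -0.18 for diet averaged over genotypes and -0.04 for genotype averaged over diets, beside 0.01 and 0.02 over all probe sets tested. The genes with the smallest p for diet were Ppa1, a soluble pyrophosphatase, at -0.22 (adjusted p = 0.33), Ppa2, its mitochondrial counterpart, at -0.18, Nt5e, which releases phosphate from AMP, at -0.23, and Entpd5, a nucleoside diphosphatase, at 0.01. For genotype they were Entpd5, at -0.33 (adjusted p = 0.20), the phosphate transporter Slc20a1, at -0.13, Nt5e, at 0.13, and Ppa1, at 0.06. Of 4 other alkaline phosphatases, 2 were measured and 1 tested, Alppl2, with 0.06 for diet and -0.03 for genotype.

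Mgp needs vitamin K-dependent carboxylation of its glutamates. Of 10 genes listed for that step or carrying the same modification, 6 were measured and tested and 0 passed for diet or genotype. For genotype averaged over diets 5 of 6 were positive, with a median of 0.15, and for diet averaged over genotypes 2 of 6 were positive, with a median of -0.09. Those with the smallest p for genotype were Pros1, the anticoagulant protein S, at 0.35 (adjusted p = 0.058), Gas6, a ligand of receptor kinases, at 0.17, Proc, protein C, at 0.24, and Calu, calumenin, at 0.12. For diet the same 4 genes had -0.14 (Pros1), -0.06 (Gas6), -0.11 (Proc) and -0.14 (Calu).

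Of 14 mineral-binding proteins and inhibitors, 8 were measured and 5 tested, and 0 passed for diet or genotype. The medians were 0.00 for diet and 0.05 for genotype. For diet, Sparc, a collagen-binding matrix protein, had -0.38 (adjusted p = 0.21), Umod 0.12, Ibsp, bone sialoprotein, -0.15 and Ahsg, fetuin-A, 0.21. For genotype, Ibsp had 0.13, Ahsg 0.25, Tnfrsf11b, osteoprotegerin, 0.05 and Sparc 0.03.

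Of 17 genes of bone morphogenetic signalling, a pathway whose ligands bind matrix Gla protein, 15 were measured and 13 tested. In the averaged comparisons 0 passed, with medians of 0.04 for diet and 0.05 for genotype. The ligand Bmp6 had 0.41 for diet (adjusted p = 0.074). In the diet comparison at 5 days it passed as higher, by 0.63 ± 0.090 (adjusted p = 0.0094), where 0.104% of probe sets were called. In diet by days 0% of probe sets were called, so no difference of Bmp6 between the durations passed. The receptors Bmpr1a and Acvrl1 had -0.15 and 0.09 for diet, and Bmp4 had -0.09. For genotype, the receptor Bmpr2 had -0.50 (adjusted p = 0.21), Bmp7 -0.37, Bmp6 -0.24 and the signal transducer Smad1 0.18.

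Beside Alpl, markers of the proximal tubule were examined, of which 15 of 18 were measured and tested. For genotype averaged over diets 12 of 15 were negative, with a median of -0.11 beside 0.02 over all probe sets tested, and 1 passed as lower (the glucose transporter Slc2a2, -0.34, adjusted p = 0.012), where 1.28% of all probe sets were called. Their summed intensity ran from 74753 to 94316 in normal mice on control diet, 80252 to 95270 (95269.8) on low phosphate diet, 69420.5 to 83753 in Hyp mice on control diet and 67082 to 81465 on low phosphate diet. For diet in normal mice 10 of 15 were positive, 0 passed and the median was 0.13. No marker in the list had a mean intensity below 38, the value added before taking logs, and the part of these cells in the Alpl differences was not tested.

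Markers of other cells also passed in the averaged genotype comparison, in which 1.28% of all probe sets were called. In the list for the thick ascending limb and distal tubule, with 7 of 9 tested, 3 passed: the calcium-binding protein Calb1 was lower in Hyp mice (-0.71, adjusted p = 6.4e-05), and the potassium channel Kcnj1 (0.33, adjusted p = 0.024) and the salt transporter Slc12a3 (0.33, adjusted p = 0.034) were higher. For Calb1 the difference was -1.28 on low phosphate diet (adjusted p = 2.5e-06, limma) and -0.15 on control diet (adjusted p = 0.71). Its genotype by diet interaction passed as well, at -1.13 (adjusted p = 0.0028). The median of that list was 0.02, and its summed intensity ran from 41379 to 50412 in normal mice on control diet, 46014 to 59997 on low phosphate diet, 43033 to 53329 in Hyp mice on control diet and 43580.4 to 48922 on low phosphate diet. In the red blood cell list, with 3 of 6 tested, all 3 were positive (median 0.35). Of them 1 passed, the anion exchanger Slc4a1 (0.35, adjusted p = 0.043), which is also a collecting duct marker. The other collecting duct markers tested did not pass, at -0.34 (Aqp4), -0.13 (Aqp2) and 0.09 (Avpr2). The summed intensity of the red blood cell list ran, in the same order, from 8685 to 11888, 6878 to 10401, 6660.2 to 15231.5 and 10308.5 to 12656. The part of these cells in the Alpl differences was not tested either.

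Beside Mgp stood markers of vessel walls and matrix, with 8 of 11 listed tested for endothelium, 6 of 9 for smooth muscle and pericytes and 10 of 11 for fibroblasts and matrix. For diet in normal mice, 7 of 8 endothelial markers were negative (median -0.20, 0 passed), 4 of 6 smooth muscle and pericyte markers (median -0.15, 0 passed) and 6 of 10 fibroblast and matrix markers (median -0.14). Of the last list 2 passed as lower, the collagen genes Col5a2 (-0.71, adjusted p = 0.018) and Col15a1 (-0.86, adjusted p = 0.046), in a comparison that called 0.184% of all probe sets. In Hyp mice Col5a2 also passed as lower on low phosphate diet (-0.68, adjusted p = 0.028; 0.15% called). For genotype on low phosphate diet 7 of 8, 5 of 6 and 8 of 10 were positive, with medians of 0.10, 0.09 and 0.22, and Col5a2 passed as higher (0.69, adjusted p = 0.012; 0.357% called). It passed as higher in Hyp mice on control diet as well (0.67, adjusted p = 0.025; 0.253% called).

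Summed intensities cover every gene measured, tested or not: 9 for endothelium, 7 for smooth muscle and pericytes and 10 for fibroblasts and matrix. In normal mice the endothelial markers summed to 6423 to 8834 on control diet and 6081 to 7384 on low phosphate diet. In Hyp mice they summed to 7089 to 8669 on control diet and 6548.5 to 8894 on low phosphate diet. The smooth muscle and pericyte markers ran, in the same order, from 2596.5 to 3497, 2483 to 3070 (3069.9), 2453 to 3360 (3360.3) and 2539 to 3910.5. The fibroblast and matrix markers ran from 9585 to 16114, 9484 to 15416.5, 10867 to 16337 and 9654 to 19012. The ranges overlapped in each list, and the part of these cells in the Mgp values was not tested. Macrophage markers were positive in 8 of 9 for genotype averaged over diets (median 0.23, 0 passed).

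Likeness of pattern was measured as Pearson's r over the 20 arrays after each stratum of sex and days was centred; the points share arrays and scaling, and the values are descriptions. For Alpl the most alike genes were Prodh2 (r = 0.93), Pdzk1ip1 (0.93), Dgcr6 (0.91), Dhrs3 (0.90) and Gtf2i (0.89), and the most opposed were Nrp1 (-0.93), Dock5 (-0.91) and Nab1 (-0.91). For Ank they were Clip1 (0.84), Otud4 (0.82), Smarca5 (0.79), Rraga (0.78) and Nr1h4 (0.78), and opposed Unc5c (-0.83), Prkcsh (-0.80) and Tubb5 (-0.79). For Mgp they were Lrp1 (0.89), Tyrobp (0.88), Marcksl1 (0.88), Flt4 (0.86) and Jpt1 (0.86), and opposed Slc23a1 (-0.93), Angptl4 (-0.87) and Cryz (-0.86). The lists depend on the measure: without centring 2 of the 5 most alike genes were the same for Alpl, 3 for Ank and 3 for Mgp, and with Spearman's rho 1, 3 and 2.

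Among the members themselves the centred r was -0.17 for Alpl and Ank, -0.36 for Alpl and Mgp and -0.40 for Ank and Mgp. Without centring, Alpl and Mgp had 0.15, so the sign of that pair depends on whether the differences between strata are kept.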

How the data were processed

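The deposited values are linear signal intensities, 1 for each probe set on each array, of RNA pooled from 3 mice per the labels. The software that made them is not given in the sources used; with 2% trimmed at each end, array means were 500.254 to 500.309, so the values had been scaled, and they were not rescaled here. No read depth or background estimate comes with them, and the number of arrays limits the precision. Of 12488 probe sets 66 were controls; the platform annotation names 1 gene for 10833 of the others, several for 396 and none for 1193. Intensities plus 38, which is their 20th percentile, were turned to log2, which understates changes of dim genes. Probe sets with a mean below the 30th percentile were left out; all 3 members passed.

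limma 3.58.1 (R 4.3.3) was fitted on all 20 arrays with the 4 groups and 4 strata of sex and days (13 residual degrees of freedom), or with the groups split by days and sex within days (10). Two-sided p-values were adjusted by Benjamini-Hochberg over all probe sets tested; the steps were tested on simulated data. Intervals are 95%. The members and lists were chosen with earlier results of these data known. In each pathway list the 4 genes with the smallest p in each averaged comparison are named, and for each member the 5 most alike and 3 most opposed genes; Bmp6 at 5 days and the cell type markers named were picked after their values were seen. Alternatives were other offsets, filters, normalization, moderation and terms, subsets of arrays, array weights, the array set as a block, and each array left out; a fit without arrays 09, 10, 19 and 20 was added after seeing the data.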

Additional observations from a re-analysis of the deposited data

How the results depend on the processing

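For the 3 genes in 13 comparisons, 1254 values under alternatives were computed. Apart from single arrays left out, 451 kept direction and call, 9 reversed, 6 gained a call and 8 lost it. The lower Alpl in Hyp mice, averaged over diets, kept its direction but lost its call with no terms for sex and days (-0.58), without arrays 05 to 08 (-0.58), in males (-0.61), in females (-0.54), at 3 days (-0.43) and at 5 days (-0.69); the subsets hold fewer arrays, and otherwise the cause was not tested. Days on diet lost its call without arrays 05 to 08, for Alpl (-0.28) and Mgp (-0.037), but those values cover males alone. Calls were gained for Alpl with the array set as a block (diet in normal mice 0.43, diet averaged 0.30, genotype on low phosphate diet -0.56), for genotype on low phosphate diet with array weights (-0.64) and without arrays 09, 10, 19 and 20 (-0.58), and for sex without those arrays (-0.26).

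Reversed values, of which none was called, were Ank for genotype on low phosphate diet with array weights (0.053), without arrays 05 to 08 (0.046), in males (0.079) and at 3 days (0.10), Ank for diet in Hyp males (0.034), in females only Ank, genotype averaged over diets (-0.044), sex without arrays 05 to 08 for Alpl (0.18) and Mgp (0.40), and Mgp for diet by days without arrays 09, 10, 19 and 20 (-0.21). Without arrays 05 to 08 only the 3-day arrays hold both sexes, so those sex values are for 3 days alone. The main sex value averages both durations, so this is another contrast and not the same one reversed. With single arrays left out, 25 values reversed, 1 gained and 1 lost a call. The ranges were -0.65 to -0.50 for Alpl and genotype averaged, -0.81 to -0.59 for Alpl and genotype on low phosphate diet, -0.0072 to 0.29 for Alpl and diet in Hyp mice, -0.10 to 0.19 for Alpl and diet by days, -0.086 to 0.015 for Ank and days, -0.078 to 0.14 for Ank and diet at 3 days, -0.029 to 0.20 for Ank and diet by days, -0.18 to 0.020 for Ank and genotype on low phosphate diet, -0.088 to 0.22 for Mgp and diet by days, -0.00076 to 0.24 for Mgp and genotype on control diet, and -0.12 to 0.075 for Mgp and sex.

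Counts of probe sets called moved further: 16 in the main fit and 0 to 85 under alternatives for diet in normal mice, 13 (0 to 17) for diet in Hyp mice, 22 (0 to 56) and 31 (0 to 67) for genotype on control and low phosphate diet, 4 (0 to 6) for the interaction, 41 (0 to 97) and 111 (0 to 187) for the averaged diet and genotype comparisons, 3554 (26 to 4341) for days, 1445 (19 to 2055) for sex, and 4 (0 to 42) and 9 (2 to 24) for diet at 3 and 5 days. The lowest counts for days and sex, 26 and 19, came without arrays 05 to 08 and cover males alone and 3 days alone. The 0 was reached in males alone (12 arrays) for diet in normal mice. For diet in Hyp mice, the averaged diet comparison, the genotype comparisons and the interaction it was reached in females alone (8 arrays). For diet at 3 and 5 days the lowest counts came without arrays 09, 10, 19 and 20. The highest count for days, 4341, came with no filter, over all 12422 probe sets. The title numbers differ for every array, so no replicate number could serve as a block; the array set did, with the values above. The values carry no estimate of signal over background for single arrays.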
